A study of Mus musculus with 3 samples.

Results

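The genes described here encode the proteasome and the MHC class I presentation pathway. They were chosen by symbol: every gene whose symbol starts with Psma to Psmg and a number, together with Tap1, Tap2, Tapbp, B2m, H2-K1 and H2-D1. The rule found 56 of the 27998 genes in the count tables, 50 by a proteasome symbol and 6 of class I. Of these, 54 had at least 50 unique molecular identifiers (UMIs) in all. The exceptions were Psma8 (29 UMIs), a testis form of a core subunit, and Psmb11 (2 UMIs), a core subunit of the thymus. Psmc3ip matches the symbol rule but encodes a recombination factor and not a proteasome subunit.

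Single-cell RNA was counted in 3 libraries of sorted mouse suprarenal aorta cells, each made from 1 pool of animals. The aneurysm pool came from 4 Apoe-/- mice on a Western diet for 16 weeks with cigarette smoke, in which a dilatation could be measured. The room air pool came from 5 Apoe-/- mice on that diet for 16 weeks without smoke, and the control pool from 5 C57BL/6 mice on chow. Only CD45+CD31- and CD45-CD31+ cells were sorted, so the balance of leukocytes and endothelial cells was set by the sort. On the CPM scale, UMI counts scaled to a common total, Apoe was at 12.9 CPM in the aneurysm library and 17.1 CPM in the room air library, against 10539.7 CPM in the control library. Stated cell viability was 94% for the aneurysm, 91% for the room air and 73% for the control library. Aneurysm and room air differ in smoke and in the selection for dilatation together. Room air and control differ in genotype, diet and viability together. The items of each comparison cannot be told apart.

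The proteasome is the protease that degrades ubiquitin-tagged proteins. Its core holds standard catalytic subunits encoded by Psmb5, Psmb6 and Psmb7, which interferon-gamma can replace with inducible ones encoded by Psmb8, Psmb9 and Psmb10, and Psme1 with Psme2 form the PA28 activator that caps the core. This form, the immunoproteasome, is known for constitutive use in lymphoid and antigen-presenting cells and for peptides suited to MHC class I. Tap1 and Tap2 pump those peptides into the endoplasmic reticulum, Tapbp (tapasin) holds the transporter next to empty class I molecules, and B2m pairs with the heavy chains H2-K1 and H2-D1.

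Promoter sequences are shown for 5 members because Tap1 and Psmb9 are neighbours with overlapping windows, while Psmb8, Psme1 and B2m represent the inducible genes and Psmb5 the standard subunit. RefSeq windows of 300 bases, from 250 before to 50 after the start, on GRCm38.p6 matched 47 of the 56 members. The windows are Tap1 chr17:34187306-34187605 (plus strand), Psmb8 chr17:34197945-34198244 (plus), Psme1 chr14:55578244-55578543 (plus), B2m chr2:122147437-122147736 (plus) and Psmb5 chr14:54617946-54618245 (minus), printed 5′ to 3′ with motif matches in capitals.
Tap1: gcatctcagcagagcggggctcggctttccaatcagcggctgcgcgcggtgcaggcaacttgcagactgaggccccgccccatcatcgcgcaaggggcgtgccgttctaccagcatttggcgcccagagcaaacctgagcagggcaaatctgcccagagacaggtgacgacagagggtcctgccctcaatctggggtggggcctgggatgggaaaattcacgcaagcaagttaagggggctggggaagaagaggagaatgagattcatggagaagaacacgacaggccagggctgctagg
Psmb8: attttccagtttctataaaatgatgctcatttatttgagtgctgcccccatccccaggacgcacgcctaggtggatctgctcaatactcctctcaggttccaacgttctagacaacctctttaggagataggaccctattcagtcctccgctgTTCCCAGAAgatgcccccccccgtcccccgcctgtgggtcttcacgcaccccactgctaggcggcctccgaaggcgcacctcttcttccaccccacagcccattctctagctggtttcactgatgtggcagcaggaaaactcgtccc
Psme1: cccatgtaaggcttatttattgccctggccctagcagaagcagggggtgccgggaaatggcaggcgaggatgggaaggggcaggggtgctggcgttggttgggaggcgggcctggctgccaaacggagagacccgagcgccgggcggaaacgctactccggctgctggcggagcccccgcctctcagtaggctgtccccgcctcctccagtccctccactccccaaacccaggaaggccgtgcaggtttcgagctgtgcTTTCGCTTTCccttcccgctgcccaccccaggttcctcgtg
B2m: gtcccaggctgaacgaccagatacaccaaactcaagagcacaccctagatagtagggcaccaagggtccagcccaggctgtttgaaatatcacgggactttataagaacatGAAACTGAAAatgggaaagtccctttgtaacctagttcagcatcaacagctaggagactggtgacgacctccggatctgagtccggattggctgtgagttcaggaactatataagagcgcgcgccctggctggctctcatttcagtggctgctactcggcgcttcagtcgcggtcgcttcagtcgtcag
Psmb5: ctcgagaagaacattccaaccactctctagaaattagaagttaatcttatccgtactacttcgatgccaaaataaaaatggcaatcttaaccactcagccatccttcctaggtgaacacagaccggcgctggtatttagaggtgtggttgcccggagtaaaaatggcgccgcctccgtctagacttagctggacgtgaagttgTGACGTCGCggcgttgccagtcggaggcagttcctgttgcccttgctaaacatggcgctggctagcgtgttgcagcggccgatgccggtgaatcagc
The window of Psmb9, on the opposite strand, shares 275 of its 300 bases with that of Tap1, and the start sites of the pair lie 226 bases apart. Motifs were searched on both strands, and in these 5 windows no match overlapped one of another motif. The letters GAAA, any 2 bases and GAAA, the core of the interferon-stimulated response element, were in 3.44% of all 32851 windows and in those of 6 members, B2m, Psme1, Psmb3, Psmd4, Psmd9 and Psmg4. The letters TTCNNNGAA, the core of the gamma-activated site, were in 8.30% of all windows and in those of Psmb8, Psmd2 and Psmg1. The letters TGACNNNGC, the core of the antioxidant response element, were in 12.4% of all windows and in 7 members, among them Psmb5, Psmb6 and H2-K1.

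After filtering, 2775 aneurysm, 1821 room air and 773 control cells were kept, with 16698309, 9998517 and 2568192 UMIs in the deposited matrices, and 9 barcodes occurred in more than 1 library. Cells were clustered without integration and without any member among the 2000 variable genes, and a cluster was called by a lineage name with the suffix -like from its markers. Each value is a sum of UMIs over the cells of a lineage in 1 library of at least 25 cells, as CPM of that sum. As each UMI marks the 3′ end of 1 molecule, no length scaling applies, but capture may differ between genes, so shares compare lineages and libraries and are not protein composition. With 1 pooled library per group there is no replicate and no test, and the 95% intervals cover counting error only. A gene with at least 50 UMIs over both libraries was called higher or lower past a 1.5-fold ratio. Median UMIs per cell were 4476 in aneurysm, 3884 in room air and 2681 in control.

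The immunoproteasome share, the percentage of all proteasome UMIs that came from Psmb8, Psmb9, Psmb10, Psme1 and Psme2, varied more between lineages than between libraries. It was highest in mature-dendritic-cell-like cells, those with Ccr7 and Fscn1, at 37.9% (36.8% to 38.9%) in aneurysm and 35.3% (33.8% to 36.9%) in room air, with no such cells in control. cDC1-like cells, the dendritic cells with Xcr1 and Clec9a, followed with 34.8% in aneurysm, 32.98% in room air and 34.4% in control. T-cell-like cells held 26.9% in aneurysm, 28.4% in room air and 29.1% in control. cDC2-like cells, the dendritic cells with Cd209a, had a lower share than T-cell-like cells, at 22.2% in aneurysm and 20.9% in room air.

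B-cell-like cells had a share of 25.04% in aneurysm, 23.6% in room air and 19.3% in control. Macrophage-like cells had 18.2% (17.9% to 18.6%) in aneurysm, 18.6% (18.2% to 19.0%) in room air and 15.9% (14.9% to 16.9%) in control. Endothelial-like cells had the lowest share in aneurysm, 13.6%, against 14.9% in room air and 16.7% in control. The intervals of these 3 endothelial shares overlapped. Monocyte-like cells were above macrophage-like cells in each library, at 21.8% in aneurysm, 20.7% in room air and 22.02% in control. The span was 13.6% to 37.9% over 13 lineages in aneurysm, 14.9% to 35.3% over 12 in room air and 15.3% to 34.4% over 8 in control.

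**Figure D1:**
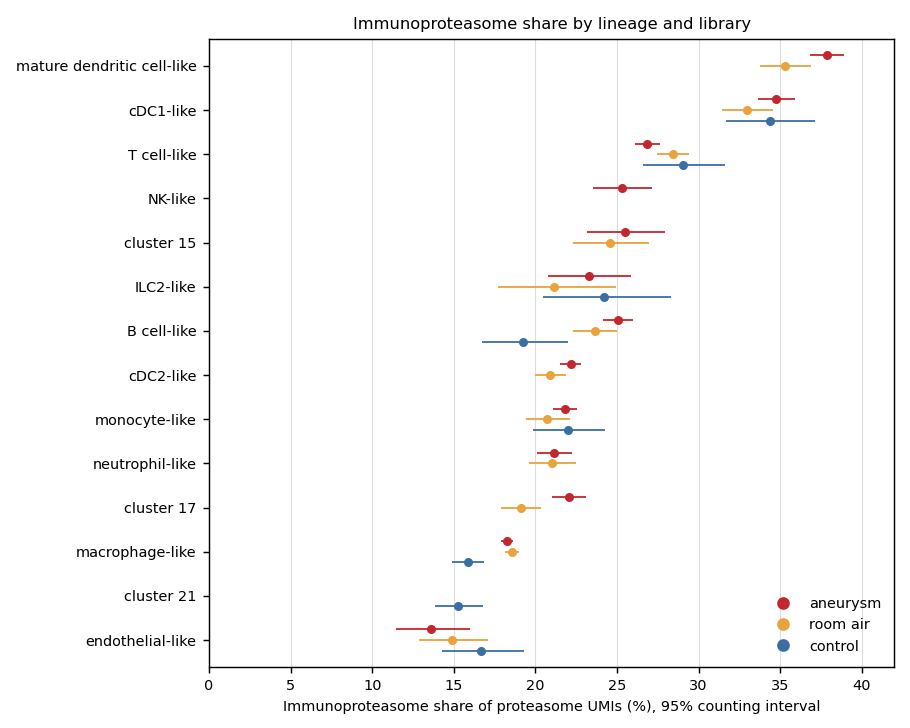
Immunoproteasome share of proteasome UMIs (x axis, %) for each lineage (rows), one point per library with its 95% counting interval. Mature-dendritic-cell-like and cDC1-like cells lie between 32.98% and 37.9%, and macrophage-like cells between 15.9% and 18.6%.

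Psmb8, the inducible subunit that replaces Psmb5, was at 1653 CPM in aneurysm and 1662 CPM in room air in mature-dendritic-cell-like cells. In cDC1-like cells it was at 1548 CPM in aneurysm, 1394 CPM in room air against 1133 CPM in control. In the aneurysm library the intervals of these dendritic lineages overlapped, at 1561 to 1750.2 CPM in mature-dendritic-cell-like and 1452 to 1649 CPM in cDC1-like cells. The lowest Psmb8 level was that of endothelial-like cells in every library, 267 CPM in aneurysm, 287 CPM in room air against 248 CPM in control. Highest over lowest was 6.19-fold in aneurysm.

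Psmb9, which replaces Psmb6, was highest in cDC1-like cells, at 684 CPM in aneurysm, 596 CPM in room air against 610.0 CPM in control. Mature-dendritic-cell-like cells had 463 CPM in aneurysm and 421 CPM in room air, so the order of these dendritic lineages was the reverse of that for Psmb8. Macrophage-like cells had 143 CPM of Psmb9 in aneurysm, 142 CPM in room air against 104 CPM in control. Psmb10, which replaces Psmb7, followed another order: it was at 189 CPM in aneurysm, 147 CPM in room air against 94.4 CPM in control in cDC1-like cells, its lowest lineage in control. Its highest lineage in aneurysm was NK-like cells, at 279 CPM. Across the 13 lineages of aneurysm, which share 1 library, Spearman's rho was 0.80 for Psmb8 with Psmb9 and 0.20 for Psmb8 with Psmb10. Psmb10 is on chromosome 8, away from Psmb8 and Psmb9 in the MHC region of chromosome 17.

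Set against its standard partner, Psmb8 made up 89.9% of Psmb8 and Psmb5 UMIs in mature-dendritic-cell-like cells of aneurysm and 88.0% in room air. In macrophage-like cells this was 72.0% in aneurysm, 73.8% in room air and 62.2% in control. Psmb9 made up 68.0% of Psmb9 and Psmb6 UMIs in cDC1-like cells of aneurysm, 64.1% in room air and 66.1% in control. In macrophage-like cells Psmb9 made up 24.8% in aneurysm, 27.2% in room air and 32.6% in control. Psmb9 was thus the majority over Psmb6 in cDC1-like cells and the minority in macrophage-like cells. Psmb10 of Psmb10 and Psmb7 was 64.6% in aneurysm, 74.1% in room air and 64.6% in control in T-cell-like cells.

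**Figure D2:**
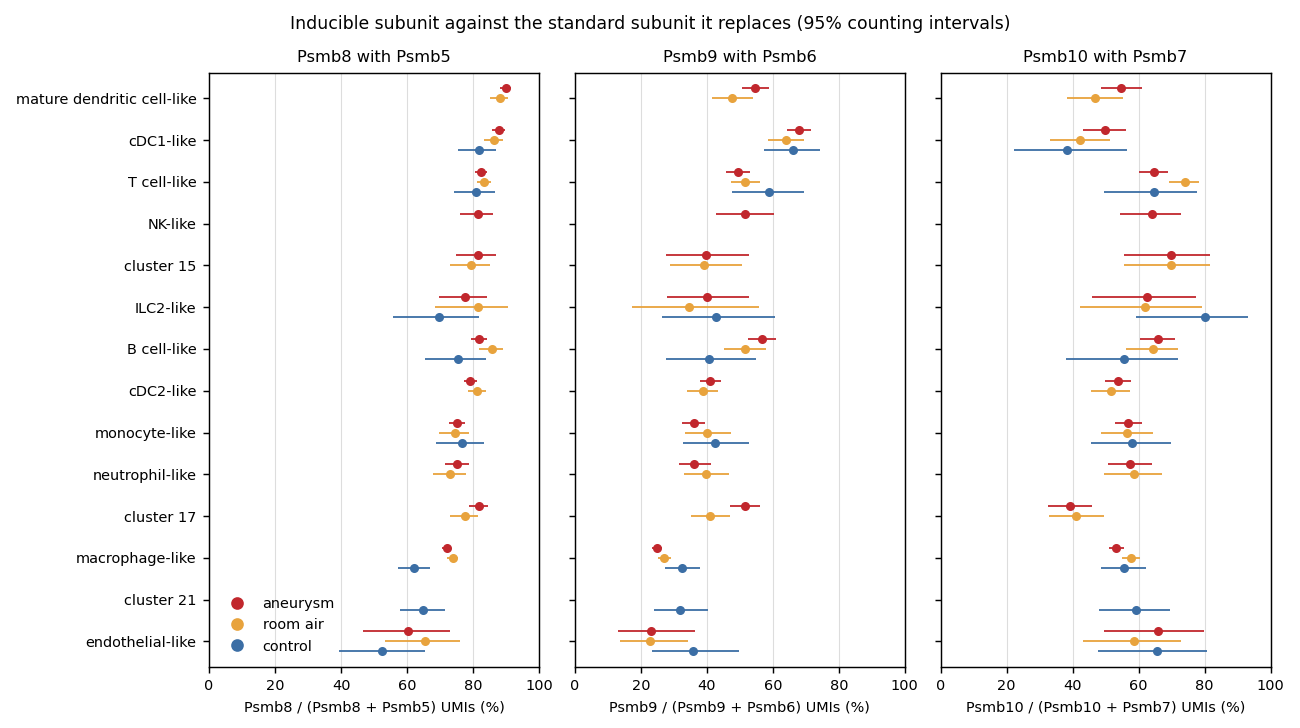
Share of the inducible subunit in its pair (x axis, % of UMIs of both) by lineage (rows) and library, with 95% counting intervals, for Psmb8 with Psmb5, Psmb9 with Psmb6 and Psmb10 with Psmb7. In aneurysm Psmb9 ranges from 23.2% in endothelial-like to 68.0% in cDC1-like cells, and Psmb8 from 60.3% in endothelial-like to 89.9% in mature-dendritic-cell-like cells.

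The PA28 activator subunits had unlike levels in the dendritic lineages. Psme1 (PA28 alpha) was at 769.5 CPM in aneurysm and 717 CPM in room air in mature-dendritic-cell-like cells, and at 770.1 CPM in aneurysm, 689 CPM in room air against 668 CPM in control in cDC1-like cells. Psme2 (PA28 beta) was at 1362 CPM in aneurysm and 1297 CPM in room air in mature-dendritic-cell-like cells, against 636 CPM in aneurysm, 493 CPM in room air against 465 CPM in control in cDC1-like cells. Psme2 spanned 8.50-fold across lineages in aneurysm, the widest span among the members with a value. Reads of Psme2 may be split with its retrocopy Psme2b, which was at 132 CPM in aneurysm and 212 CPM in room air in mature-dendritic-cell-like cells.

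Set against cDC2-like cells, mature-dendritic-cell-like cells had 12 of 51 members higher in aneurysm, beside 12.3% of all genes, and 16 of 47 in room air, beside 14.2%. Among those higher were 4 of 5 immunoproteasome genes in each library, and 5 class I genes in aneurysm and 6 in room air. The median log2 ratio was 0.97 for the immunoproteasome genes in aneurysm and 1.06 in room air, against 0.01 in aneurysm and 0.22 in room air for the other proteasome genes. For all genes it was -0.21 in aneurysm and -0.17 in room air. Psme2 was 3.63 times (3.28 to 4.01) its cDC2-like level in aneurysm and 4.11 times (3.51 to 4.83) in room air. Psmg4, an assembly chaperone subunit, was 3.11 times its cDC2-like level in aneurysm and 1.76 times in room air. Psmd6, a lid subunit, was lower in aneurysm (0.64 times), 1 member beside 27.7% of all genes, and 3 were lower in room air, Psme3 (0.42), Psmg3 (0.60) and Psmd3 (0.60), beside 27.4%.

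cDC1-like over cDC2-like cells had 8 of 51 members higher in aneurysm, beside 7.99% of all genes, and 6 of 46 in room air, beside 6.91%. These were in both libraries Psmb8, Psmb9, Psme1, Psme2, Tap1 and Tap2, with Psme2b and Psmg2 also higher in aneurysm. Psmb9 was 2.93 times (2.55 to 3.36) its cDC2-like level in aneurysm and 2.96 times (2.40 to 3.65) in room air. The class I chains were below their cDC2-like level: H2-K1 was at 0.72 times in aneurysm and 0.86 times in room air, B2m at 0.83 times in aneurysm and 0.91 times in room air, and H2-D1 at 0.85 times in aneurysm and 0.84 times in room air. None of these chains passed 1.5-fold. Lower were Psmd8 in aneurysm (0.63), beside 22.6% of all genes, and 3 members in room air, beside 23.2%: Psmc1 (0.59), Psmc6 (0.63) and Psmd8 (0.66).

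Set against monocyte-like cells, macrophage-like cells had all 5 immunoproteasome genes at a ratio below 1 in each library, with a median log2 ratio of -0.48 in aneurysm, -0.22 in room air and -1.01 in control. The median of all genes was 0.01 in aneurysm, 0.03 in room air and 0.09 in control. In control 13 of 43 members were lower in macrophage-like than in monocyte-like cells, beside 19.2% of all genes, and 4 of them were immunoproteasome genes. Psmb8 was at 264 CPM in macrophage-like against 606 CPM in monocyte-like cells of control (0.44, 0.35 to 0.55), and Psme2 at 201 CPM in macrophage-like against 404 CPM in monocyte-like cells (0.50, 0.38 to 0.66). In aneurysm 1 of 53 was lower, the core subunit Psma7 (0.62), beside 9.6%, and in room air 0 of 53, beside 12.5%. The Psmb8 ratio was 0.75 (0.69 to 0.80) in aneurysm and 0.82 (0.72 to 0.93) in room air. Higher were Psmg2 in aneurysm (1.68), beside 15.4%, and Psmd1 in control (1.75), beside 29.7%. In room air 5 were higher, beside 21%: Psmf1 (3.505), Psmd1 (2.63), Psmg1 (2.20), Psmc1 (1.53) and Psmd7 (1.52).

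T-cell-like over B-cell-like cells had Psme2 higher in each library, at 456 CPM in T-cell-like against 272 CPM in B-cell-like cells of aneurysm (1.67, 1.48 to 1.90), with ratios of 1.63 (1.36 to 1.98) in room air and 2.49 (1.61 to 3.99) in control. In aneurysm 2 of 51 members were higher, Psme2 and Psmg1, beside 15.7% of all genes, and 0 lower, beside 12.5%. In room air 5 of 50 were higher, beside 17.5%: Tap2 (2.05), Psmb5 (1.78), Psme2, H2-K1 (1.62) and Tap1 (1.55). Lower there were Psmd5 (0.63) and Psmf1 (0.58), beside 11.5%. In control 3 of 19 were higher, Psme2, Psmb9 (1.66) and Psme1 (1.59), beside 19.2%, and Tapbp was lower (0.66), beside 16.6%.

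The class I chains followed another order of lineages than the inducible subunits. B2m was highest in ILC2-like cells, innate lymphoid cells with Gata3 and Il1rl1, at 8130.3 CPM in aneurysm, 7661 CPM in room air against 7078 CPM in control. It was lowest in cDC1-like cells, at 3572 CPM in aneurysm, 3449 CPM in room air against 2679.6 CPM in control. H2-K1 was also highest in ILC2-like cells, at 2950.4 CPM in aneurysm, 2684 CPM in room air against 2662 CPM in control. In cDC1-like cells H2-K1 was at 719 CPM in aneurysm, 798 CPM in room air against 566 CPM in control. CPM is a share of a lineage's UMIs and not an amount per cell. In aneurysm, median UMIs per cell were 9929 in cDC1-like and 2894 in ILC2-like cells. B2m had 2245 UMIs in 61 cDC1-like cells and 1105 UMIs in 42 ILC2-like cells there. Per cell it was thus not lower in cDC1-like than in ILC2-like cells.

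H2-D1 was at 5195 CPM in aneurysm, 6062 CPM in room air against 5420 CPM in control in ILC2-like cells, again the top of the order. On the CPM scale, cDC1-like cells thus combined the highest Psmb9 and low class I chains in each library. The Spearman rho of Psmb8 with B2m was 0.13 over the 13 lineages of aneurysm. The highest monocyte-like levels were in cluster 20, led by Treml4 and Ace, markers of nonclassical monocytes: its summed class I was 17049 CPM in aneurysm and 16833 CPM in room air, against 11247 CPM in aneurysm and 10310.1 CPM in room air in cluster 8, led by Chil3. H2-K1, H2-D1 and the H2-Q genes are similar in sequence, so some reads may be assigned among them.

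Tap1 was at 280.0 CPM in aneurysm, 294 CPM in room air against 159.8 CPM in control in cDC1-like cells, and at 262 CPM in aneurysm and 292 CPM in room air in mature-dendritic-cell-like cells. Macrophage-like cells had 71.7 CPM in aneurysm, 72.8 CPM in room air against 35.8 CPM in control. Spearman's rho of Tap1 with Psmb9 was 0.78 over 13 lineages in aneurysm, 0.89 over 12 in room air and 0.62 over 8 in control. That of Psmb8 with Psmb9 was 0.80 in aneurysm, 0.78 in room air and 0.83 in control. The lineages of a library share its depth and its free RNA, the transcripts captured from outside the cells. Tap2 was at 228 CPM in aneurysm, 216 CPM in room air against 225 CPM in control in cDC1-like cells, and at 66.3 CPM in aneurysm, 72.6 CPM in room air against 61.4 CPM in control in macrophage-like cells. Tapbp was highest in mature-dendritic-cell-like cells, with 428 CPM in aneurysm and 425 CPM in room air.

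**Figure D3:**
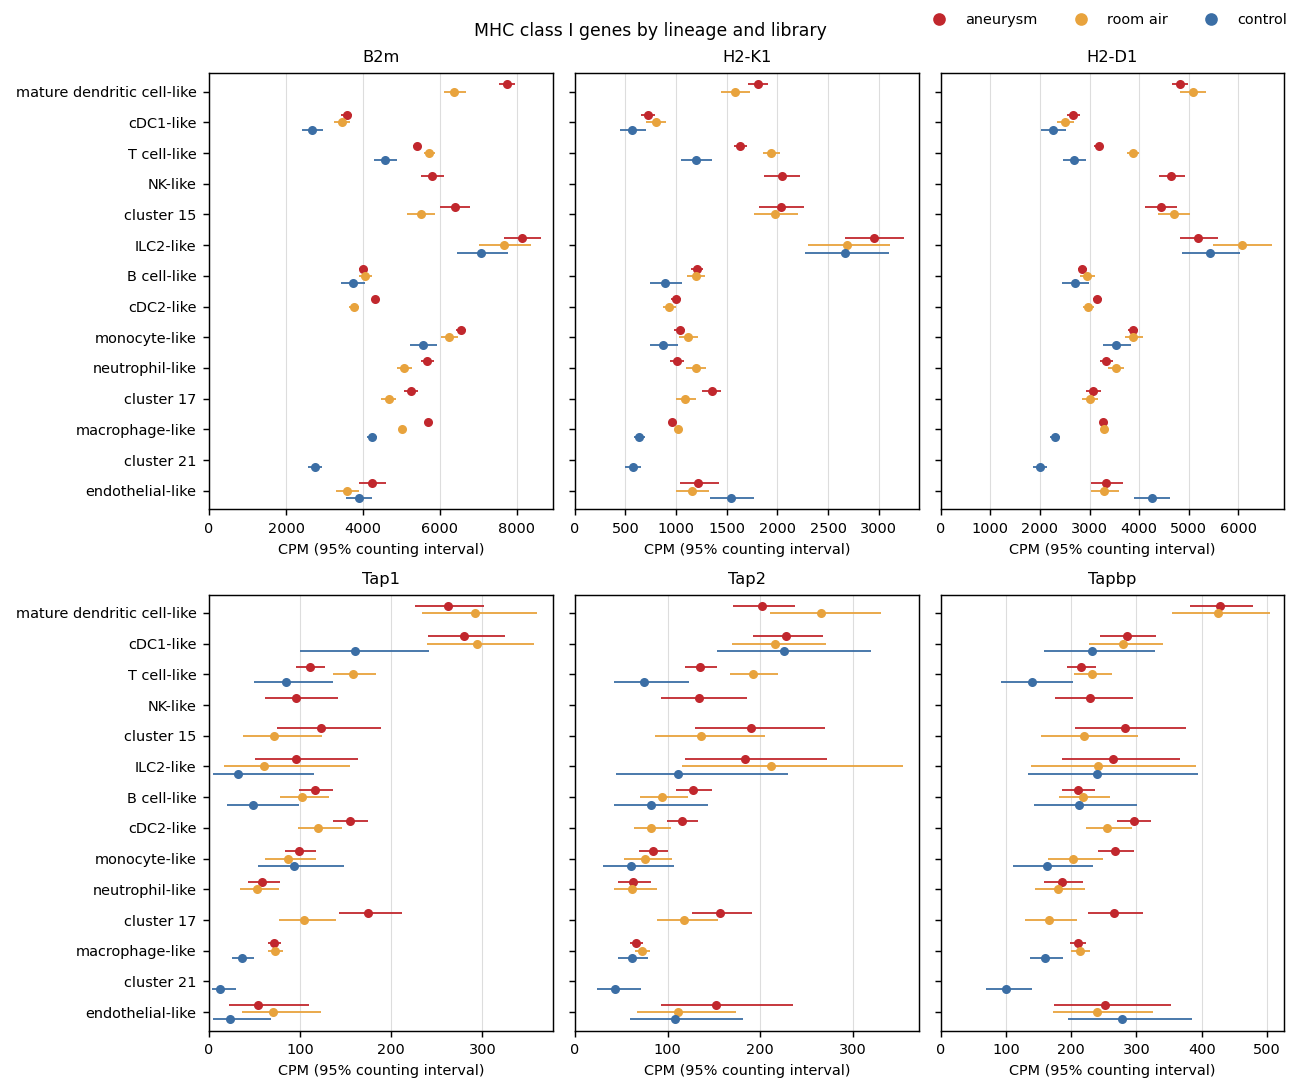
Level of each class I gene (x axis, CPM of the lineage's UMIs) by lineage (rows, ordered by immunoproteasome share) and library, with 95% counting intervals. B2m, H2-K1 and H2-D1 peak in ILC2-like cells, while Tap1 reaches 280.0 CPM in cDC1-like cells of aneurysm.

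Spans across lineages differed between the groups of members. In aneurysm the median of highest over lowest lineage was 6.19-fold for the immunoproteasome genes, 2.97-fold for class I, 3.26-fold for the 6 assembly factors with a fold, 2.53-fold for the standard catalytic subunits and 2.02-fold for the 11 other core subunits. It was 1.86-fold for the 6 ATPases Psmc1 to Psmc6, which unfold substrates, and 2.31-fold for the regulatory particle subunits with a fold. Of the other core subunits Psma1 to Psma7 and Psmb1 to Psmb4, 7 of 11 were highest in cluster 17 of aneurysm, a cluster led by Top2a and Birc5, genes of cell division. In the regulatory particle, 6 of 11 subunits (Psmd1 to Psmd4, Psmd6 to Psmd8 and Psmd11 to Psmd14) were highest there. Psmd4, a ubiquitin receptor, spanned 1.28-fold across lineages, and Psmd8, a lid subunit, 3.54-fold.

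The standard subunits had their own extremes. Psmb6 was at 432 CPM in aneurysm, 381 CPM in room air against 216 CPM in control in macrophage-like cells, and at 171 CPM in aneurysm, 217 CPM in room air against 218 CPM in control in B-cell-like cells. Psmb5 in macrophage-like cells was at 197 CPM in aneurysm, 175 CPM in room air against 161 CPM in control. Psmb7 was at 140.0 CPM in aneurysm, 129 CPM in room air against 100.3 CPM in control. In aneurysm all 3 were lowest in B-cell-like cells.

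The remaining members were rare. In aneurysm the activators Psme3 (PA28 gamma) and Psme4 (PA200) reached 100.9 CPM in cluster 17 and 30.5 CPM in endothelial-like cells, and the inhibitor Psmf1 reached 42.03 CPM in cluster 17. The base chaperones Psmd5, Psmd9 and Psmd10 reached 68.9, 52.1 and 71.1 CPM, and the core assembly factors Psmg1, Psmg2, Psmg3 and Psmg4 reached 36.8, 51.5, 43.0 and 146 CPM. Psmc3ip reached 23.5 CPM in cluster 17. Psmg4 was the highest of the assembly group, in mature-dendritic-cell-like cells.

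Within macrophage-like cells the balance of subunits depended on the cluster. Cluster 2, led by Spp1 and Gpnmb, genes of lipid-laden macrophages, had a share of 15.3% (14.8% to 15.7%) in aneurysm and 14.4% (13.8% to 14.9%) in room air. Cluster 3, led by Ccl12 and Ifit3, had 21.9% (21.0% to 22.9%) in aneurysm and 23.02% (22.2% to 23.9%) in room air. Cluster 11, led by Clec4b1, had 22.8% in both aneurysm and room air, and cluster 13, led by Ccl8, had 20.4% in aneurysm and 20.7% in room air. Cluster 9, with Lyve1 and Cd163 as in resident macrophages, held 256 of the 275 macrophage-like cells of control, with a share of 15.6% (14.6% to 16.6%).

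Among the catalytic subunits, Psmb6 was higher and Psmb9 lower in cluster 2 than in cluster 3 in both libraries, and Psmb10 was lower in aneurysm. Psmb6 was at 569.8 CPM in cluster 2 against 263 CPM in cluster 3 in aneurysm, and at 537 CPM in cluster 2 against 239 CPM in cluster 3 in room air. Psmb9 was at 108 CPM in cluster 2 against 178 CPM in cluster 3 in aneurysm, and at 102 CPM in cluster 2 against 179 CPM in cluster 3 in room air. Psmb9 of Psmb9 and Psmb6 was therefore 15.9% in cluster 2 and 40.3% in cluster 3 in aneurysm, and 15.98% in cluster 2 and 42.8% in cluster 3 in room air. Tap1 was 0.57 times (0.44 to 0.75) its cluster 3 level in aneurysm and 0.46 times (0.35 to 0.60) in room air.

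Over the members, 5 of 53 were higher in cluster 2 in aneurysm, beside 14.3% of all genes, and 4 of 52 in room air, beside 12.1%. Lower were 3 in aneurysm, beside 10.2%, and 4 in room air, beside 12.7%. Higher in aneurysm were Psmb6 (2.16), Psmd10 (2.01), Psmd5 (1.53), Psmc4 (1.51) and Psma1 (1.501), and in room air Psmb6 (2.24), Psmd1 (2.04), Psmd8 (1.72) and Psmd13 (1.53). Lower in aneurysm were Tap1, Psmb9 (0.60) and Psmb10 (0.63), and in room air Tap1, Psmb9 (0.57), H2-K1 (0.62) and Tap2 (0.66). The median log2 ratios were -0.32 in aneurysm and -0.40 in room air for the immunoproteasome genes, 0.36 in aneurysm and 0.25 in room air for the other proteasome genes, and 0.08 in aneurysm and 0.05 in room air for all genes. The 15 genes of a type I interferon response list summed to 873 CPM in cluster 2 and 1932 CPM in cluster 3 of aneurysm, and to 695 CPM in cluster 2 and 2533 CPM in cluster 3 of room air. The part of these genes in the difference was not tested.

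**Figure D4:**
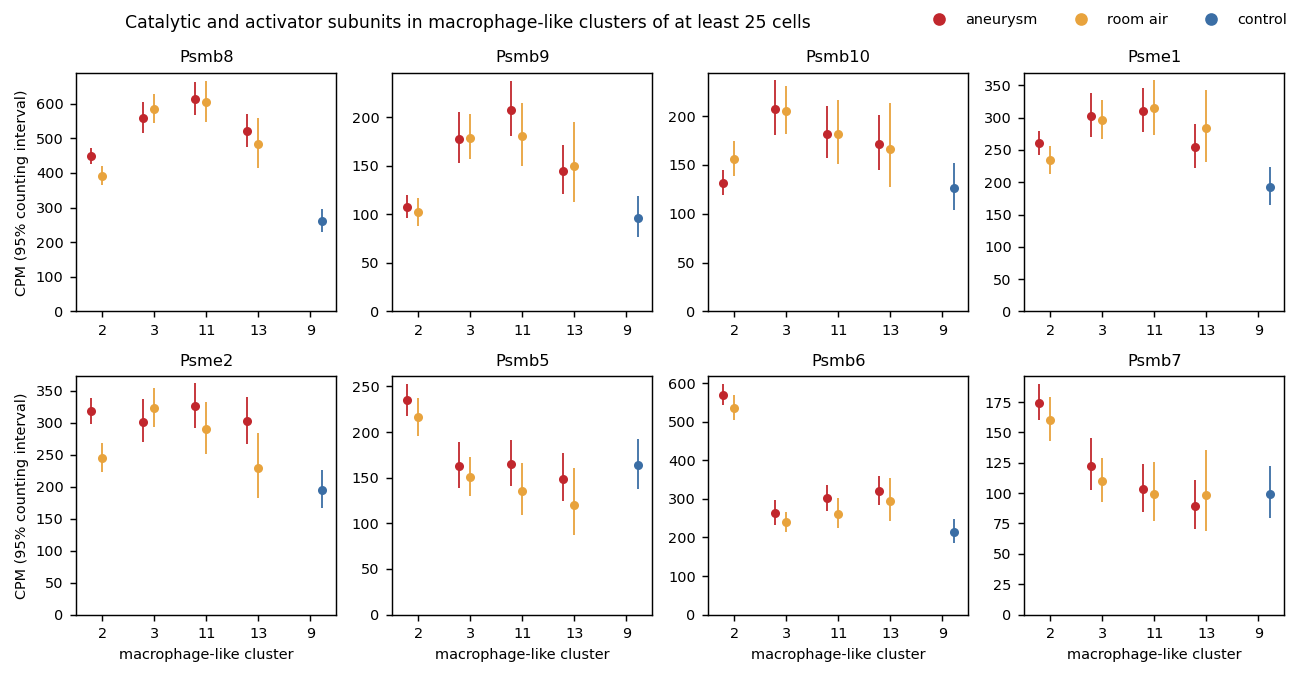
Level (y axis, CPM of the cluster's UMIs, 95% counting intervals) of the 5 immunoproteasome genes and the 3 standard catalytic subunits in macrophage-like clusters with at least 25 cells in a library (x axis, cluster number). Psmb6 is at 569.8 CPM in cluster 2 and 263 CPM in cluster 3 of aneurysm, and Psmb9 at 108 CPM in cluster 2 and 178 CPM in cluster 3.

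Between aneurysm and room air, the members in macrophage-like cells stayed within 1.5-fold. Of 53 members with enough UMIs, 0 were higher, beside 1.97% of all genes, and 0 were lower, beside 3.89%. Psmb8 was at 507 CPM in aneurysm and 492 CPM in room air (ratio 1.03, 0.97 to 1.09). Psme2 was at 314 CPM in aneurysm and 274 CPM in room air (1.15, 1.07 to 1.23). B2m was at 5699 CPM in aneurysm and 5004 CPM in room air (1.14, 1.12 to 1.16), and H2-K1 at 964 CPM in aneurysm and 1014 CPM in room air (0.95, 0.91 to 0.99).

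The small differences were not the same for the inducible and the standard subunits. The standard subunits Psmb5 and Psmb6 both had a ratio of 1.13 (1.03 to 1.24 and 1.07 to 1.21), and Psmb10 was at 159 CPM in aneurysm and 176 CPM in room air (0.91, 0.82 to 1.00). The odds of an inducible against a standard catalytic UMI were 0.89 times (0.83 to 0.95) those of room air. Cluster 2, the cluster with the lowest share, held 328 of 694 macrophage-like cells in aneurysm and 218 of 575 in room air. Its part in this odds ratio was not tested.

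In the same cells 3 of 13 genes of an interferon-gamma response list were lower, and the median log2 ratio was -0.24 against 0.03 for the immunoproteasome genes and -0.02 for all genes. The chemokine Cxcl9 was at 9.48 CPM in aneurysm and 22.05 CPM in room air (0.43), and the guanylate-binding protein Gbp2 at 22.6 CPM in aneurysm and 39.3 CPM in room air (0.58). Of 15 type I interferon genes, 5 were lower, among them Ifit3 at 41.1 CPM in aneurysm and 96.2 CPM in room air (0.43) and Ifit2 (0.52). Cluster 3, led by Ccl12 and Ifit3, held 161 of 694 macrophage-like cells in aneurysm and 223 of 575 in room air. The part of this mix in the interferon values was not tested. The 12 class I loading genes and 14 proteasome partners had 0 higher and 0 lower. The median of 12 dissociation stress genes was -0.39, with 3 lower.

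In T-cell-like cells, 1 of 52 members was lower, the ATPase Psmc1 at 40.5 CPM in aneurysm and 68.0 CPM in room air (0.60), beside 13.9% of all genes, and 0 were higher, beside 3.63%. H2-D1 was at 3181 CPM in aneurysm and 3873.5 CPM in room air (0.82, 0.79 to 0.85), and H2-K1 at 1635 CPM in aneurysm and 1938 CPM in room air (0.84, 0.80 to 0.89). Tap1 was at 111 CPM in aneurysm and 158 CPM in room air (0.70, 0.57 to 0.86), and Psmb8 at 701 CPM in aneurysm and 836 CPM in room air (0.84, 0.77 to 0.91). All 6 class I genes were below a ratio of 1, with a median log2 ratio of -0.26 against -0.13 for all genes.

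The T-cell-like cells lay in different clusters in the 2 libraries. Cluster 4, led by Gzmk, Ccl5 and Nkg7, held 134 of 592 cells in aneurysm and 238 of 423 in room air. Cluster 5, led by Dapl1 and Cd8b1, held 263 cells in aneurysm and 75 in room air, and cluster 7, led by Izumo1r and Cd4, held 195 in aneurysm and 110 in room air. Within clusters, H2-D1 was at 3777 CPM in aneurysm and 4121 CPM in room air in cluster 4, at 2872 CPM in aneurysm and 3209.7 CPM in room air in cluster 5, and at 3188 CPM in aneurysm and 3906 CPM in room air in cluster 7. The counting intervals were apart in cluster 7 and overlapped in clusters 4 and 5. Tap1 was at 145 CPM in aneurysm and 146 CPM in room air in cluster 4, at 87.6 CPM in aneurysm and 147 CPM in room air in cluster 5, and at 119 CPM in aneurysm and 193 CPM in room air in cluster 7. The Tap1 difference of the whole class was thus not seen in cluster 4.

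In these T-cell-like cells the median of the dissociation stress genes was -0.86, with 5 of 9 lower, among them Hspa1a at 14.3 CPM in aneurysm and 42.4 CPM in room air (0.34). That of the interferon-gamma list was -0.61, with 6 of 11 lower, and 6 of 10 type I interferon genes were lower (median -0.76). Free RNA was estimated at 9.36% of UMIs in aneurysm and 20.9% in room air. The part of each in the class I values was not tested. Ifng, the gene of interferon-gamma, was at 12.5 CPM in aneurysm (22 UMIs) and 27.4 CPM in room air (31 UMIs) in T-cell-like cells, whose cluster mix differed as given above, and the part of that mix in the Ifng level was not tested.

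Cluster 17, the cluster led by genes of cell division, had 47 cells in aneurysm and 40 in room air and no lineage name. Any mix of lineages in it, and its part in the values that follow, was not tested. It had 6 of 48 members higher, beside 9.40% of all genes, and 0 lower, beside 12.3%. Tap1 was at 175 CPM in aneurysm and 104 CPM in room air (1.67, 1.17 to 2.42), Tapbp at 266 CPM in aneurysm and 166 CPM in room air (1.60, 1.21 to 2.14), and Psmb9 at 412 CPM in aneurysm and 259 CPM in room air (1.59, 1.27 to 2.01). Psme2 was at 403 CPM in aneurysm and 268 CPM in room air (1.51, 1.20 to 1.89). Psme3 (1.59, 1.00 to 2.58) and Psmd10 (1.57, 0.86 to 2.98) also passed 1.5-fold, with intervals that held 1.

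In monocyte-like cells the summed immunoproteasome CPM of aneurysm was 1.21 times (1.12 to 1.32) that of room air. The other proteasome genes summed to 1.14 times (1.09 to 1.19), with class I at 1.02 times. The median log2 ratio was 0.21 for the immunoproteasome genes and 0.23 for the other proteasome genes. It was 0.11 for class I and 0.004 for all genes. Of the monocyte-like cells, cluster 8 held 175 in aneurysm and 64 in room air. Cluster 20, with the higher class I, held 42 in aneurysm and 30 in room air. The part of this mix in the sums and medians was not tested. Psme2 was at 438 CPM in aneurysm and 298 CPM in room air (1.47, 1.22 to 1.78). Here 2 of 49 members were higher, beside 7.96% of all genes, Psmd1 (2.10, a scaffold subunit) and Psmc6 (1.60), and 0 were lower, beside 6.92%. In cDC2-like cells 1 of 51 members was higher, the base chaperone Psmd9 (1.70, 0.94 to 3.24), beside 6.21%, and 2 were lower, beside 5.67%, Psmf1 (0.58) and Psmg3 (0.64). Psme1 in cDC2-like cells was at 401 CPM in aneurysm and 295 CPM in room air (1.36, 1.17 to 1.58). Free RNA in monocyte-like cells was estimated at 16.1% of UMIs in aneurysm and 24.1% in room air. In cDC2-like cells it was 13.6% in aneurysm and 23.5% in room air. The part of free RNA in these values was not tested.

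In mature-dendritic-cell-like cells 2 of 46 members were higher, Psme3 (1.91, 0.92 to 4.48) and Psmd3 (1.60, 0.81 to 3.46), beside 6.10% of all genes, and 3 lower, beside 6.60%: Psmd6 (0.61), Psmd11 (0.62) and Psme2b (0.62). The odds of an inducible against a standard catalytic UMI were 1.28 times (1.08 to 1.52) those of room air, and B2m was at 7747 CPM in aneurysm and 6377 CPM in room air (1.21, 1.15 to 1.28). Psmb7 was at 164.5 CPM in aneurysm and 246 CPM in room air (0.67, 0.50 to 0.91) in the same cells. In cDC1-like cells 2 of 45 were higher, beside 7.38%, Psmc6 (1.78) and Psmd14 (1.60, the deubiquitinase of the lid), and 0 lower, beside 5.11%. In B-cell-like cells 0 of 50 were higher, beside 3.60%, and 2 were lower, beside 10.3%, Psmf1 (0.56) and Psmd5 (0.60). Free RNA in mature-dendritic-cell-like cells was estimated at 13.2% of UMIs in aneurysm and 26.1% in room air. It was 16.6% in aneurysm and 21.7% in room air in cDC1-like cells. In B-cell-like cells it was 9.85% in aneurysm and 21.7% in room air. The part of free RNA in these values was not tested.

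The remaining lineages gave few calls. Neutrophil-like cells had 1 of 46 members higher, Psmd3 (1.60, 0.88 to 3.04), beside 4.55% of all genes, and 0 lower, beside 6.44%. Endothelial-like cells had 0 of 21 higher, beside 6.65%, and 1 lower, beside 8.84%, which was Psme2 at 160.2 CPM in aneurysm and 276 CPM in room air (0.58, 0.33 to 0.99). ILC2-like cells had 1 of 14 higher, Psme1 (1.74, 0.98 to 3.24), beside 7.42%, and 0 lower, beside 8.13%. Cluster 15, led by Cd163l1, had 0 of 24 higher, beside 5.88%, and 0 lower, beside 5.98%.

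Between room air and control, macrophage-like cells had 16 of 53 members higher, beside 23.6% of all genes, and 3 lower, beside 11.5%. The share of members higher was 30.2%. Psmb8 was at 492 CPM in room air against 264 CPM in control (1.86, 1.64 to 2.13), and Psmb6 at 381 CPM in room air against 216 CPM in control (1.76, 1.53 to 2.05). Tap1 was at 72.8 CPM in room air against 35.8 CPM in control (2.03, 1.43 to 2.97), and H2-K1 at 1014 CPM in room air against 638 CPM in control (1.59, 1.46 to 1.73). The largest among the others were Psmd5 (34.4 CPM in room air against 12.3 CPM in control, 2.80), Psmd2 (119.9 CPM in room air against 57.3 CPM in control, 2.09) and Psmc5 (131 CPM in room air against 65.5 CPM in control, 2.00).

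Lower in room air were Psme4 (0.55), Psmg4 (0.65) and Psmg2 (0.66). The summed immunoproteasome CPM was 1.52 times (1.41 to 1.63) that of control, class I 1.30 times (1.27 to 1.33) and the other proteasome genes 1.25 times (1.21 to 1.29). Gene by gene, 1 of 5 immunoproteasome genes was higher, Psmb8. Higher too were 13 of 42 other proteasome genes and 2 of 6 class I genes, beside 23.6% of all genes. The odds of an immunoproteasome against another proteasome UMI were 1.21 times (1.12 to 1.31). Free RNA was estimated at 30.04% of UMIs in room air and 15.7% in control, and subtracting it gave a room air share of 16.97%, against 18.6% without. The control share of 15.9% given above is without subtraction, so it is not the match of the 16.97%. The odds of Psmb8 against Psmb5 were 1.71 times (1.37 to 2.13) those of control. Those of Psmb9 against Psmb6 were 0.77 times (0.59 to 1.00) and of Psmb10 against Psmb7 1.09 times (0.81 to 1.47), and both of these intervals held 1.

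These macrophage-like cells came from different clusters in the 2 libraries, mostly clusters 2 and 3 in room air and cluster 9 in control. Without cluster 2 the room air share was 22.5%, and cluster 2 alone, at 14.4%, was below the control share of 15.9%. Of the interferon-gamma list, 8 of 11 genes were higher, with a median of 0.88 against 0.14 for all genes; Gbp2 was at 39.3 CPM in room air against 16.4 CPM in control (2.40). Of the type I interferon list, 11 of 15 were higher (median 0.92), with Irf7 at 118 CPM in room air against 26.6 CPM in control (4.44). Of the class I loading list, 6 of 12 were higher (median 0.52), among them H2-Q6 (3.86) and H2-Q7 (2.73). Of the proteasome partners, 1 of 14 was higher (median 0.28), the deubiquitinase gene Usp14 (1.59).

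**Figure D5:**
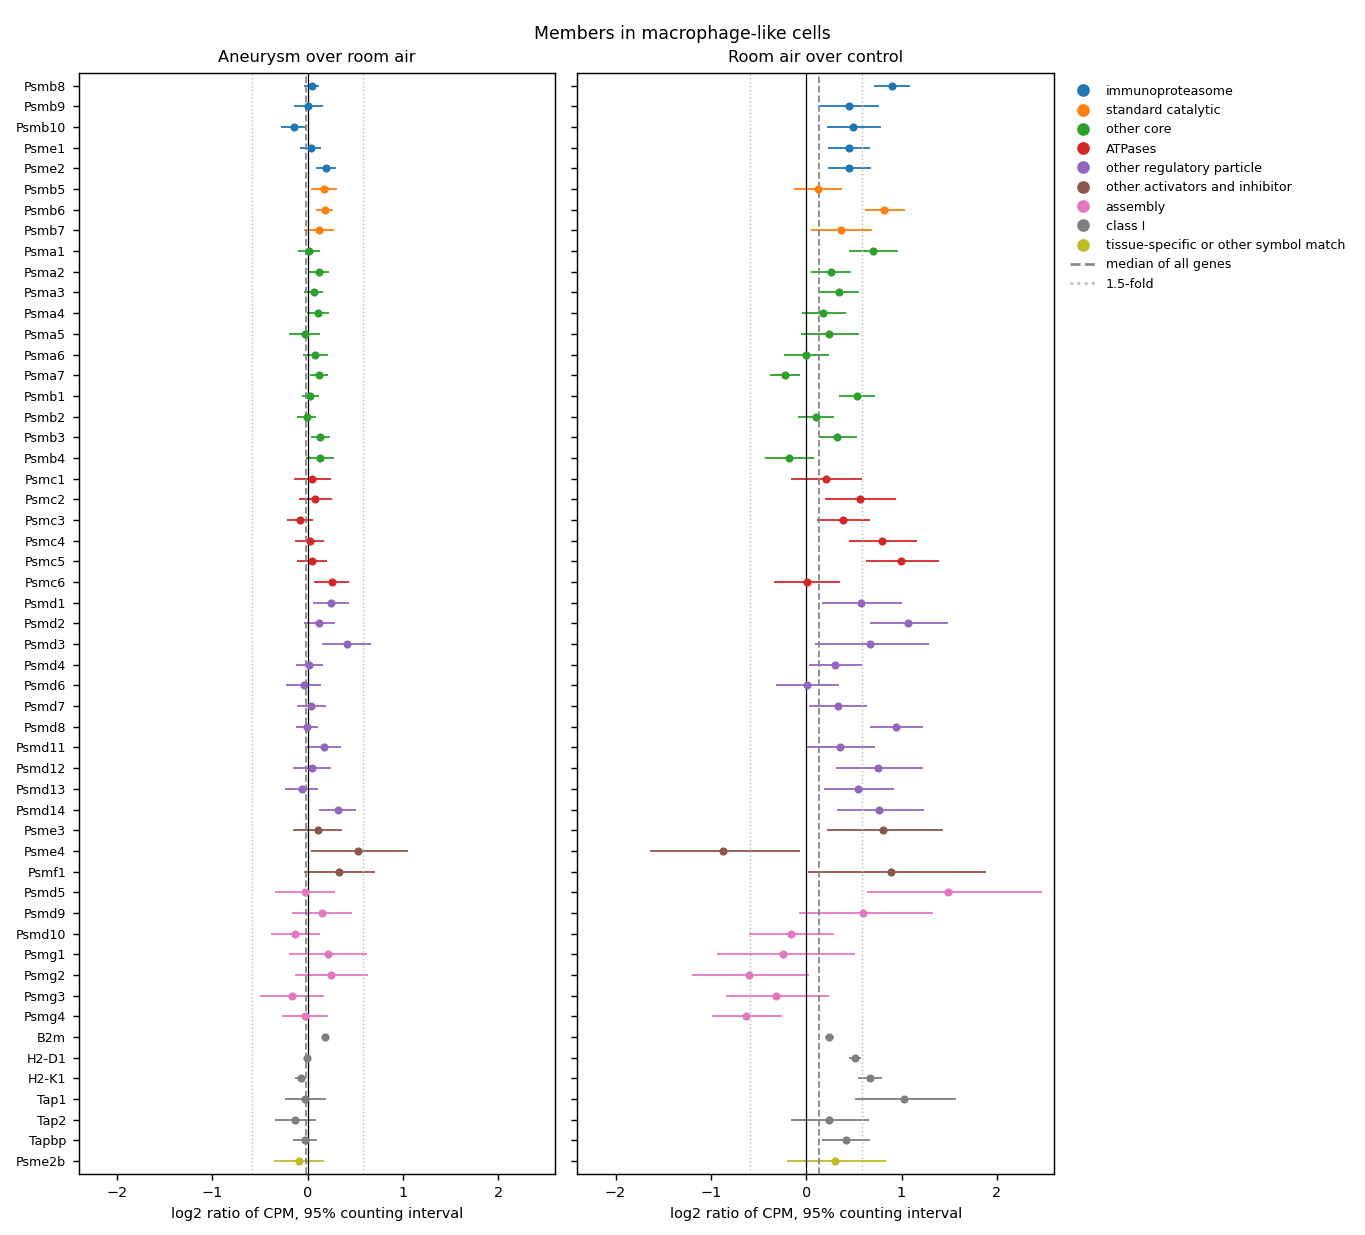
Ratio of CPM in macrophage-like cells (x axis, log2, 95% counting intervals) for each member with enough UMIs, coloured by role, for aneurysm over room air (left) and room air over control (right); the dashed line is the median of all genes and dotted lines mark 1.5-fold. The left points lie within 1.5-fold, and 16 members on the right pass it upward.

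In T-cell-like cells cluster 4 held 238 of 423 cells in room air and 9 of 98 in control, and the part of this mix in the values that follow was not tested. Here 17 of 47 members were higher in room air, beside 35.8% of all genes, and 1 was lower, Psmd9 (0.65, 0.34 to 1.35), beside 4.76%. The median log2 ratio of all genes was 0.34, so changes are read against it: it was 0.71 for class I, 0.34 for the other proteasome genes and 0.15 for the immunoproteasome genes. Tap2 was at 192 CPM in room air against 75.0 CPM in control (2.56, 1.52 to 4.65), H2-K1 at 1938 CPM in room air against 1194 CPM in control (1.62, 1.42 to 1.86) and H2-D1 at 3873.5 CPM in room air against 2688 CPM in control (1.44, 1.32 to 1.58). Among the other members with an interval above 1, the largest ratios were those of Psmd2 (2.50), Psma1 (2.25) and Psmc4 (2.14). The median of the dissociation stress genes was 1.08, with 6 of 8 higher, and free RNA was estimated at 20.9% in room air and 5.98% in control. Their part was not tested.

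In B-cell-like cells 5 of 37 members were higher, Psmc5, Tap1, Psmd2, Psmc3 and Psmb9, beside 18.5% of all genes, and 1 was lower, Psmb5, beside 6.68%. The summed immunoproteasome CPM was 1.32 times (1.12 to 1.57) that of control, against 1.02 times (0.94 to 1.11) for the other proteasome genes. Psmb9 was at 230.4 CPM in room air against 150.2 CPM in control (1.53, 0.97 to 2.53) and Psmb5 at 93.6 CPM in room air against 150.2 CPM in control (0.62, 0.37 to 1.07), and both intervals held 1. Of the other members, Psmc5 (2.54) and Psmc3 (1.84) had intervals above 1. The dissociation stress median was 0.99 here, and free RNA was estimated at 21.7% in room air and 5.24% in control; their part was not tested.

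Endothelial-like cells differed in direction for class I, which summed to 0.84 times (0.78 to 0.91) the control level. Free RNA was estimated at 18.9% in room air and 5.01% in control, and its part was not tested. H2-K1 was at 1155 CPM in room air against 1540.5 CPM in control (0.75, 0.61 to 0.92) and H2-D1 at 3301 CPM in room air against 4249.9 CPM in control (0.78, 0.69 to 0.88). Here 0 of 20 members were higher, beside 10.9% of all genes, and 1 was lower, beside 13.6%, which was Psmc3 (0.66, 0.38 to 1.14). Monocyte-like cells had 4 of 37 higher, Psmc4 (1.78), Psmd13 (1.74), Psmd14 (1.70) and Psmd11 (1.62), all with intervals that held 1, beside 16.3%, and 1 lower, beside 4.97%, Psmc6 (0.50), with the summed immunoproteasome at 0.94 times (0.82 to 1.08). In cDC1-like cells 5 of 33 were higher, Psmd2, Psmd13, Tap1, Psmb10 and Psmd8, beside 20.3%, and 0 lower, beside 5.47%. The intervals of Psmb10 and Psmd8 held 1. Tap1 was at 294 CPM in room air against 159.8 CPM in control (1.84, 1.15 to 3.06), with Psmd2 (2.49) and Psmd13 (2.06) the largest of the others. The dissociation stress median in cDC1-like cells was 0.72, with 4 of 7 genes higher and 1 lower, and its part was not tested. ILC2-like cells had 0 of 7 higher, beside 13.7%, and 0 lower, beside 15.3%. Free RNA in cDC1-like cells was estimated at 21.7% in room air and 11.9% in control. It was 24.1% in room air and 0% in control in monocyte-like cells, and 9.01% in room air and 0% in control in ILC2-like cells. The part of free RNA in these values was not tested.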

How the data were processed

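The files deposited by the authors hold counts: un-normalized whole numbers of UMIs for each gene in each barcode. The chemistry was 10x 3′ v2, per the labels' protocols. The submitters' processing notes name Cell Ranger, STAR and the mm10 build. Barcodes with at least 200 genes and at most 10% mitochondrial UMIs were kept (5465 of 5475). Scrublet's automatic threshold marked 3 cells (0.0549%) and was not used. The highest scores were removed at 0.8% per 1000 barcodes, 64 in aneurysm, 27 in room air and 5 in control. Cells were clustered with scanpy 1.11.5 (30 principal components, 15 neighbours, Leiden resolution 1), giving 24 clusters. A lineage name needed 3 detected markers and a score of 0.6. Clusters 15, 17 and 21 stayed numbered.

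UMIs were summed per lineage and library. Intervals are exact (Poisson for levels, Clopper-Pearson for shares, conditional binomial for ratios). The calculation of ratios was checked on simulated Poisson counts of macrophage-like cells only, without variation between cells, animals or pools. For room air and control, 92% of genes raised 2-fold were recovered and 7.74% of unchanged genes passed 1.5-fold. Lineages with fewer UMIs were not simulated.

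The members and gene lists were chosen with earlier results of these data known. In each lineage and comparison, the 3 other members with the largest fold and an interval without 1 were named, and at most 4 genes of each list. Alternatives covered scaling, filters, doublets, free RNA, lineage calls and clusters.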

Additional observations from a re-analysis of the deposited data

Results flagged for a closer look

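For 8 genes the CPM ratio lay above 1 in one lineage and below 1 in another under the same comparison, with counting intervals on opposite sides of 1. With 1 library per group the difference between lineages was not tested.

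Of aneurysm over room air, B2m had a ratio of 1.21 in mature-dendritic-cell-like cells and 0.943 in T-cell-like cells. These ratios are not set against the median of all genes, whose log2 ratio was -0.13 in T-cell-like cells. B2m, at a log2 ratio of -0.08 there, was above that median, so its ratio below 1 depends on the scaling. H2-D1 had 1.06 in cDC2-like cells and 0.821 in T-cell-like cells, and H2-K1 1.24 in cluster 17 and 0.844 in T-cell-like cells. Psmb6 had 1.26 in monocyte-like cells and 0.789 in B-cell-like cells. Psmb8 had 1.34 in cluster 17 and 0.838 in T-cell-like cells. Psme2 had 1.51 in cluster 17 and 0.581 in endothelial-like cells. Tap1 had 1.67 in cluster 17 and 0.700 in T-cell-like cells, and Tap2 1.41 in cDC2-like cells and 0.705 in T-cell-like cells. Cluster 17 had no lineage name, and the part of any mix of lineages in its ratios was not tested.

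Of room air over control, H2-D1 had 1.44 in T-cell-like cells and 0.777 in endothelial-like cells. H2-K1 had 1.62 in T-cell-like cells and 0.750 in endothelial-like cells. Psme2 had 1.37 in macrophage-like cells and 0.739 in monocyte-like cells.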

How the results depend on the processing

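No paired analysis was possible because each group has 1 pooled library. Of 485 median log2 ratios of member groups set against an alternative, 54 moved and 0 were counted as reversed. The other values compared were shares, levels and counts, which have no direction to reverse. Ratios of single genes were not among the values compared. Immunoproteasome shares are given as aneurysm, room air and control where each moved. In mature-dendritic-cell-like cells they were 43.4% and 39.4% with the members not barred from the variable genes. In that alternative 0 members entered the variable genes, and there were 23 clusters instead of 24. The shares of the same cells were 43.0% and 39.4% with no doublet removed and 39.4% and 37.9% after subtracting free RNA. With each cell weighted equally they were 39.1% and 36.9%. In cDC1-like cells they were 31.5%, 29.2% and 31.0% with lineages from each cell's own markers, and 36.4% and 35.1% after subtracting free RNA. T-cell-like cells had 30.2% in room air after subtracting free RNA and 27.8% in aneurysm without cluster 7. In macrophage-like cells they were 17.7% and 17.8% with every deposited barcode, 17.6% in aneurysm with own markers, 16.4% and 16.97% after subtracting free RNA, 19.2% in room air with each cell weighted equally, 21.8% and 22.5% without cluster 2, 17.5% and 16.8% without cluster 3, and 17.4% and 17.8% without cluster 11. Leaving out Psme2 and Psme2b lowers each share by construction: B-cell-like 21.9% and 20.7%, T-cell-like 22.2%, 24.5% and 23.9%, cDC1-like 31.0%, 29.7% and 30.8%, macrophage-like 14.8%, 15.5% and 12.8%, and mature-dendritic-cell-like 30.1% and 28.2%.

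In macrophage-like cells, the members higher in aneurysm numbered 1 instead of 0 with no doublet removed, with every barcode, with own markers, with free RNA subtracted and with a minimum of 1 UMI. The members higher and lower in room air numbered 3 and 0 at a 2-fold limit, and 1 was lower with own markers. Over all lineages, 127 of 362 counts of members past 1.5-fold moved by over 1.5 times under an alternative. With 1 library per group, differences between pools and between conditions cannot be told apart, and genes under the UMI minimum gave no call.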
